A study of Mus musculus with 6 samples.

Results

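The cyclin-dependent kinase (CDK) inhibitor family was followed in mouse hearts through its 8 genes, picked by gene symbol from the 45777 genes of the expression table: Cdkn1a (p21), Cdkn1b (p27), Cdkn1c (p57), Cdkn2a, Cdkn2b (p15), Cdkn2c (p18), Cdkn2d (p19INK4d) and Cdkn3. All 8 were detected, and all 8 passed the minimum of 10 counts on average for testing, with means of 13.5 to 1204. The hearts came from BALB/c nude mice (CAnN.Cg-Foxn1nu/Crl). The labels give an age of 6 weeks, and in the study treatment began after that age, so the hearts were collected later. All groups, Control included, carried subcutaneous MDA-MB-231 xenografts, a human breast cancer line. Nude mice lack a thymus and make few T cells, and the T cell markers Cd3e, Cd3d, Cd3g, Cd4 and Cd8a together reached 0.854 to 2.82 CPM, counts scaled to the library total. The 6 conditions were Control (vehicle), Rh2-20 mg/kg and Rh2-30 mg/kg, and the same 3 with Dox added. Rh2 is a ginseng saponin and was injected daily for 3 weeks. Dox is the anthracycline doxorubicin, which damages the heart as well as the tumour, and was given at 2 mg/kg every other day to a cumulative dose of 22 mg/kg. Each condition had 1 library, made with the SureSelect XT RNA Direct capture kit from RNA of 5 pooled hearts, so replication existed only between Rh2 doses. The study asked whether Rh2 protects the heart from Dox, and for this family the question is whether a senescence or arrest programme moved with either agent.

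The proteins fall into classes by what they block. The CIP/KIP proteins p21, p27 and p57 bind cyclin complexes of several CDKs, whereas the INK4 proteins p15, p16, p18 and p19INK4d bind CDK4 and CDK6 alone and so keep the retinoblastoma protein active. Cdkn2a encodes p16 and, from another first exon and reading frame, ARF, which stabilizes p53. Cdkn3 encodes a phosphatase that acts on CDK2, and its own gene is transcribed in dividing cells. Adult cardiomyocytes rarely divide, p21 is a classical p53 target after DNA damage, and p16 and p21 are commonly read as signs of senescence.

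The promoters of 3 members are shown because they hold matches to motifs of p53 (Cdkn1a), the cell cycle (Cdkn3) and E2F (Cdkn2c), the groups of genes beside which these members are described. Sequences are RefSeq's for GRCm38.p6 (mm10), and each holds the 250 bases before a transcript start. The table held 10 promoters for 7 of the members. Capitals in the Cdkn1a promoter mark a match to the 20-base p53 consensus without a spacer, with 1 mismatch allowed outside its conserved C and G. Capitals in the Cdkn3 promoter mark the cell cycle homology region (TTTGAA or its reverse complement), CCAAT boxes and a GC box (GGGCGG). Those in the Cdkn2c promoter mark GC boxes and an E2F match (GCGGGAA, here on the other strand). No 2 marked motifs overlap.

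Cdkn1a, distal start, chr17:29090729-29090978, plus strand: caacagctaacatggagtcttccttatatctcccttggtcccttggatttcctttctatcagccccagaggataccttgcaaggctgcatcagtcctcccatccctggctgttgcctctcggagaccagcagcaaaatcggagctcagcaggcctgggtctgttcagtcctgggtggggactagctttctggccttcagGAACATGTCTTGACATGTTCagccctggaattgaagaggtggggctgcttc
Cdkn3, start inside the annotated gene span, chr14:46760291-46760540, plus strand: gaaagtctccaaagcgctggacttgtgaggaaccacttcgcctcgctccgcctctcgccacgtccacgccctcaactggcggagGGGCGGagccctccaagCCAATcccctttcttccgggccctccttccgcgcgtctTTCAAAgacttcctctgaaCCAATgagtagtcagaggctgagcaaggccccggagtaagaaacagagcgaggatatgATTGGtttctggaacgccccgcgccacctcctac
Cdkn2c, distal start, chr4:109666757-109667006, minus strand: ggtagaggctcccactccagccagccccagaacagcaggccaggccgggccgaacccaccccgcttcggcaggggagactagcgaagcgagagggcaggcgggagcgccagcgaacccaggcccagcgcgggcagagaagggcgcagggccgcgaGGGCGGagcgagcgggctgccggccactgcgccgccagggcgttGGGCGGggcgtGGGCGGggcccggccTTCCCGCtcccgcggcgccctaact

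The p53 match in the distal Cdkn1a promoter begins 51 bases before the start, and such a match occurred in 19 of 32851 mouse promoters of the same length (0.0578%). The other Cdkn1a promoter, at chr17:29093519-29093768, held 0. Of 15 other p53 targets with a promoter in the table, 1 (Ccng1) held such a match, against 0.0703% of all 27025 genes. The Cdkn3 window held 1 cell cycle homology region 111 bases before the start and 3 CCAAT boxes, whereas 16% of all promoters held the former and 33.8% at least 1 of the latter. These motifs were not particular to Cdkn3 within the family. The Cdkn2b promoter also held 1 cell cycle homology region, 161 bases before its start. CCAAT boxes were also in the promoters of Cdkn1b (2) and Cdkn2d (1). Of the 17 proliferation markers with a promoter in the table, 5 held the cell cycle homology region and 16 a CCAAT box, against 18.3% and 37.5% of all 27025 genes. E2F matches were present in 3.82% of promoters, among them the distal promoter of Cdkn2c and a promoter of Cdkn2a, while the other promoter of each held none. Both strands were searched, and a match describes letters only.

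The libraries held 86164411 to 90621002 counts. Cardiomyocyte markers (Myh6, Myh7, Tnnt2, Tnni3, Actc1, Ttn, Ryr2 and Pln) summed to 86953 to 117534 CPM. Some libraries stood apart in other cell types: Rh2-30 mg/kg had 1662 CPM of the 4 atrial markers against 45.7 in Control, 92.7 CPM of the 3 brown fat markers against 7.52, 68.4 CPM of the 4 white fat markers against 1.27, and 2436 CPM of the 7 fibroblast markers against 1419. Dox had 8019 CPM of the 5 erythroid markers against 2660 in Control, 378 CPM of atrial and 14.1 of white fat markers, and Rh2-20 mg/kg + Dox had 4381 CPM of erythroid and 403 of atrial markers. In bulk tissue, fewer cells of a type and less RNA per cell cannot be told apart. All values below are per library, and intervals on single libraries or on their ratios cover counting error only. The p-values rest on the spread between libraries that differ in Rh2 dose. In the Rh2 fit this spread also holds any difference of the Rh2 effect between the Dox arms. With Rh2 dose as a term, the spread is instead the disagreement of the Dox effect between doses. Each comparison of groups was tested over 18328 genes by edgeR's quasi-likelihood method, and adjusted p-values are those of Benjamini and Hochberg.

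Per transcript length, the family was led by Cdkn1b and Cdkn2d. Cdkn1b had 4.06 to 4.81 FPKM over the 6 libraries and was first in 5 of them, and Cdkn2d had 2.95 to 4.30 FPKM and was first in Rh2-20 mg/kg. Cdkn1a ranked 3 in each library, at 1.06 to 3.34 FPKM. Cdkn2c ran from 0.664 to 2.17 FPKM, Cdkn3 from 0.0954 to 1.72 and Cdkn1c from 0.488 to 0.690. The senescence locus on chromosome 4 was lowest, with 0 (Rh2-20 mg/kg + Dox) to 0.209 FPKM for Cdkn2a and 0.0474 to 0.184 for Cdkn2b. Neighbours in this order had overlapping ranges except that Cdkn2a and Cdkn2b lay below Cdkn1c in every library.

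**Figure D1:**
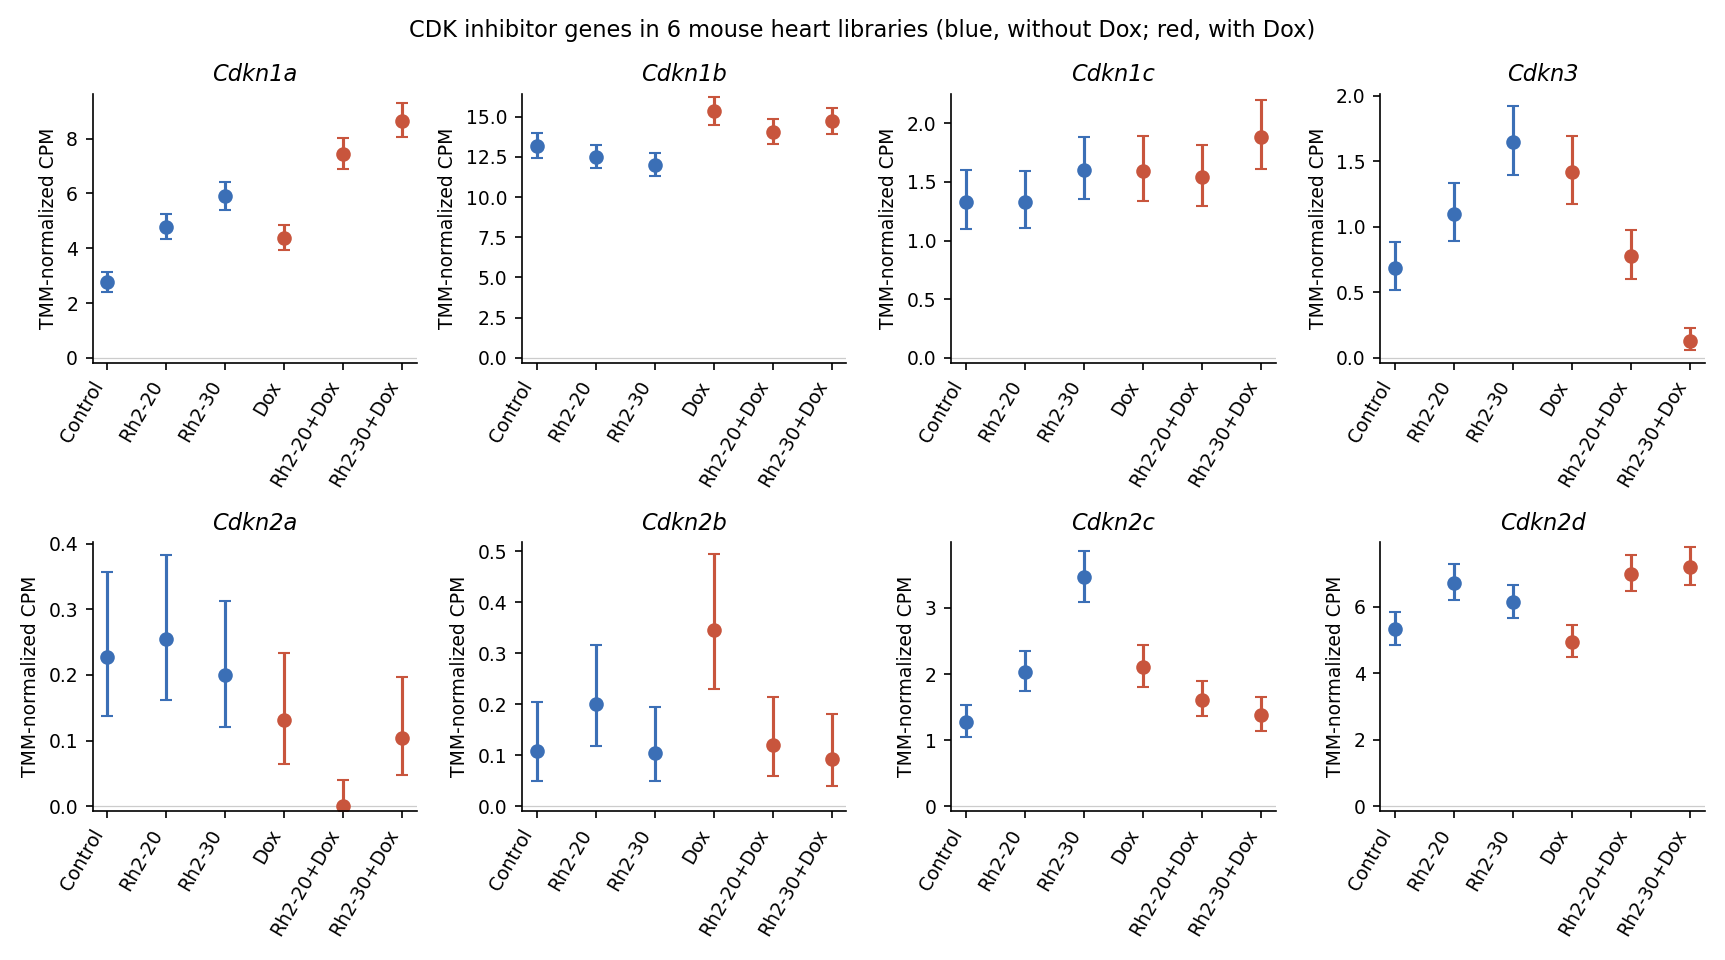
CPM after TMM normalization (vertical axes, starting at 0) of each CDK inhibitor gene in the 6 libraries (horizontal axes), with 95% Poisson intervals for counting error; blue points are without Dox and red points with Dox. Cdkn1a climbed from 2.76 CPM in Control to 8.66 in Rh2-30 mg/kg + Dox, whereas Cdkn3 was at 0.127 in the latter library.

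Cdkn1a was higher in all 5 treated libraries than in Control. The gene lies on chromosome 17 (29090979 to 29100722), and its protein p21 arrests cells in G1 after DNA damage. Without Dox it had 230 counts in Control, 431 with Rh2 at 20 mg/kg and 559 with Rh2 at 30 mg/kg, or 2.76, 4.79 and 5.89 CPM. With Dox it had 368, 681 and 753 counts at the same Rh2 doses of 0, 20 and 30 mg/kg, or 4.38, 7.43 and 8.66 CPM. The order was the same in both arms: within the libraries without Dox and within those with Dox, the level was lowest without Rh2 and highest at 30 mg/kg. Only Dox and Rh2-20 mg/kg had overlapping counting intervals among neighbours in this order. The coefficient of variation over the 6 libraries was 38.0%, against a median of 15.7% for 2047 genes of like mean count.

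With Rh2, the Cdkn1a log2 fold change was 0.91 (95% interval 0.53 to 1.30), which is 1.88-fold, from 3.57 CPM on average in the 2 libraries without Rh2 to 6.69 in the 4 with it. Its rank by p was 32 of 18328, yet the adjusted p of edgeR's quasi-likelihood test was 0.567 (unadjusted 0.00123). DESeq2's Wald test gave an adjusted p of 0.000661, so the call depends on the tool. No gene passed in this comparison with edgeR (0%), 1602 did at an unadjusted p under 0.05 (8.74%), and DESeq2 called 242. Both Rh2 libraries were above the library without Rh2 in each Dox arm, a pattern seen in 16% of tested genes. The sum of the 4 neutrophil markers (S100a8, S100a9, Ly6g and Elane) had the same separation, at 4.47 to 13.2 CPM with Rh2 and 3.10 to 3.31 without. Ly6g was at 0 only in Control and Dox, whereas Elane was at 0 in every library except Rh2-30 mg/kg. The part of these markers in the Cdkn1a values was not tested.

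With Dox, Cdkn1a was higher at each Rh2 dose. The log2 ratio to the library of the same Rh2 dose was 0.66 (0.42 to 0.91) without Rh2, 0.63 (0.46 to 0.81) at 20 mg/kg and 0.56 (0.40 to 0.72) at 30 mg/kg. The groups overlapped, as both Rh2 libraries without Dox, at 4.79 and 5.89 CPM, were above Dox at 4.38, and the comparison of 3 libraries with 3 gave 0.61 (−0.20 to 1.41, edgeR adjusted p = 0.594). Without Control it was 0.35 and without Rh2-30 mg/kg + Dox 0.40, whereas without the Dox library it was 0.84 (edgeR adjusted p = 0.588, unadjusted 0.0365). With Rh2 dose as a term, which pairs libraries of equal dose, the fold change was 0.62 and the unadjusted p fell from 0.117 to 0.00543 (edgeR adjusted p = 0.486). The interaction was −0.074 on the log2 scale (−0.94 to 0.79, edgeR adjusted p = 0.998), so the Dox fold with Rh2 lay between 0.522 and 1.73 times that without.

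Set against Dox alone, Rh2-20 mg/kg + Dox had 0.76 (0.58 to 0.95) and Rh2-30 mg/kg + Dox 0.98 (0.80 to 1.17) more Cdkn1a on the log2 scale. As 1 group these 2 libraries gave 0.88 (0.25 to 1.51, edgeR adjusted p = 0.844, unadjusted 0.0164), in a comparison where no gene passed, 5.21% did at an unadjusted p under 0.05 and DESeq2 called 101. The single-library ratios have no replicate check.

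Cdkn1b, which holds resting cells out of the cycle and is located on chromosome 6 (134920401 to 134925525), changed little in size but separated the Dox groups. It had 1098, 1128 and 1138 counts without Dox and 1290, 1289 and 1281 with it, each in order of Rh2 dose. The level was 12.0 to 13.2 CPM without Dox and 14.1 to 15.3 with it, so the groups did not overlap. Among tested genes, 7.84% had all Dox libraries above all others. The log2 fold change was 0.23 (0.0074 to 0.45, edgeR adjusted p = 0.480, unadjusted 0.0445). In TMM-normalized CPM the Rh2 libraries of each arm were below the library without Rh2, as for 16.3% of tested genes, but in FPKM the libraries without Dox were at 4.06, 4.06 and 4.09 in order of Rh2 dose, so this order depends on the scaling. The Rh2 fold change was −0.098 (−0.31 to 0.12, edgeR adjusted p = 0.738).

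Cdkn1c, the imprinted p57 gene on chromosome 7 (143458339 to 143461059), was at 1.33, 1.33 and 1.60 CPM without Dox and at 1.59, 1.54 and 1.89 with it, in order of Rh2 dose. The highest library was Rh2-30 mg/kg + Dox, and the groups overlapped. The fold change with Dox was 0.23 on the log2 scale (−0.25 to 0.71, edgeR adjusted p = 0.747). At the same Rh2 dose the ratios were 0.26, 0.21 and 0.24, each with a counting interval that spans 0. The CIP/KIP genes Cdkn1a, Cdkn1b and Cdkn1c were thus the 3 members with the Dox library higher at all 3 Rh2 doses, a pattern of 15.9% of tested genes.

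Cdkn2a (chromosome 4, 89274473 to 89294619), whose count pools p16 and ARF transcripts, had 19, 23 and 19 counts without Dox in order of Rh2 dose and 11, 0 and 9 with it. Every library with Dox was below every library without, as in 9.20% of tested genes. With the floor of 3 counts in place of the 0, Rh2-20 mg/kg + Dox was 7.80-fold lower than Rh2-20 mg/kg. On the same floor it was 6.97-fold lower than Control and 3.998-fold lower than Dox. These folds leave out the counting error of the other library. The counting intervals of the 3 log2 ratios had upper ends of −2.55, −2.36 and −1.45, in the same order. The fitted Dox fold change was −1.54 (−3.71 to 0.63, edgeR adjusted p = 0.622), and it was −0.95 without Rh2-20 mg/kg + Dox, the library with 0 counts. No rise of the p16 locus with Dox was seen at this depth. Counts this low leave intervals that span a fold above 1: the ratio of Dox to Control was −0.77 (−2.02 to 0.34).

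Cdkn2b, the p15 gene beside it (89306289 to 89311032), was high in a single library. It had 29 counts in Dox and 8 to 18 in the other libraries. The log2 ratio of Dox to Control was 1.62 (0.56 to 2.94). Against the same library, Rh2-20 mg/kg + Dox was at −1.48 (−2.67 to −0.48) and Rh2-30 mg/kg + Dox at −1.84 (−3.25 to −0.74). Over the groups, the fold change with Dox was 0.42 (−1.07 to 1.91, edgeR adjusted p = 0.865) and turned to −0.37 without the Dox library. Rh2 + Dox against Dox gave −1.69 (−3.53 to 0.16, edgeR adjusted p = 0.844). Dox was also the library with the most erythroid marker counts, at 8019 CPM against 1237 to 4381 in the others, and it had more atrial (378 CPM) and white fat (14.1 CPM) marker counts than Control (45.7 and 1.27), and their part in the Cdkn2b value was not tested. The annotated lncRNA Gm12610 overlaps Cdkn2b and had 0 to 3 counts per library.

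Cdkn2c (chromosome 4, 109660876 to 109666756), an INK4 gene and E2F target, had 106, 183 and 328 counts without Dox at Rh2 doses of 0, 20 and 30 mg/kg, and 177, 148 and 120 with Dox. Without Dox the level increased with Rh2 dose from 1.27 to 2.03 and 3.46 CPM, and with Dox it decreased from 2.11 to 1.61 and 1.38. The Dox ratio at equal Rh2 dose was 0.72 (0.37 to 1.09), −0.33 (−0.65 to −0.011) and −1.32 (−1.64 to −1.02). The interaction was −1.60 (−3.17 to −0.031, edgeR adjusted p = 0.988, unadjusted 0.0471), in a fit where no gene passed, 2.71% did at an unadjusted p under 0.05 and DESeq2 called 38. The highest library, Rh2-30 mg/kg, is the one with the most atrial, fat and fibroblast marker counts, and their part was not tested. Without it the interaction was −1.17, and the Dox effect went from −0.41 to 0.049.

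Cdkn3 (chromosome 14, 46760461 to 46771530) had the widest range of the family apart from Cdkn2a: 57, 99 and 156 counts without Dox, in order of Rh2 dose, and 119, 71 and 11 with it. The highest level was 13.0-fold the lowest. It followed the order of Cdkn2c, increasing with Rh2 dose without Dox and decreasing with Dox. Dox against the same Rh2 dose was 1.04 (0.58 to 1.53), −0.50 (−0.97 to −0.051) and −3.64 (−4.73 to −2.82). The interaction was −2.65 (−6.47 to 1.17, edgeR adjusted p = 0.988, unadjusted 0.133), with the Rh2 + Dox libraries at 0.775 and 0.127 CPM. Without Rh2-20 mg/kg + Dox it was −4.47 (edgeR adjusted p = 0.529, unadjusted 0.00363) and without Rh2-30 mg/kg + Dox −1.87, and it passed in neither. Rh2-30 mg/kg + Dox also had the fewest fibroblast (977 CPM) and macrophage (195 CPM) marker counts, and Rh2-30 mg/kg the most of both (2436 and 405 CPM). Erythroid markers decreased in the same order as Cdkn3 with Dox, at 8019, 4381 and 1237 CPM in order of Rh2 dose, but not without it, at 2660, 1925 and 2416. The part of these cells was not tested.

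Cdkn2d (chromosome 9, 21288459 to 21291421), the p19INK4d gene, was higher with Rh2 in both arms. It had 444 counts in Control and 416 in Dox, against 606 and 583 at the lower and the higher Rh2 dose without Dox and 642 and 626 with it. The 4 Rh2 libraries, at 6.15 to 7.20 CPM, did not overlap with the other libraries, at 4.95 and 5.33, and this order within both arms was seen in 16% of tested genes. The sum of the neutrophil markers, given beside Cdkn1a, separated the same libraries, although Elane alone did not, and their part was not tested. The Rh2 fold change was 0.40 (0.082 to 0.71, edgeR adjusted p = 0.567, unadjusted 0.0219), and 0.52 (0.038 to 1.005, edgeR adjusted p = 0.844) when the Rh2 + Dox libraries were set against Dox. The Dox effect was 0.073 (−0.35 to 0.50, edgeR adjusted p = 0.923). The library with Dox was below its partner in the absence of Rh2 and above it at both Rh2 doses, as in 7.44% of tested genes. These log2 ratios were −0.11 (−0.30 to 0.090) without Rh2, 0.058 (−0.10 to 0.22) at 20 mg/kg and 0.23 (0.063 to 0.39) at 30 mg/kg. Only the last of these counting intervals did not span 0.

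**Figure D2:**
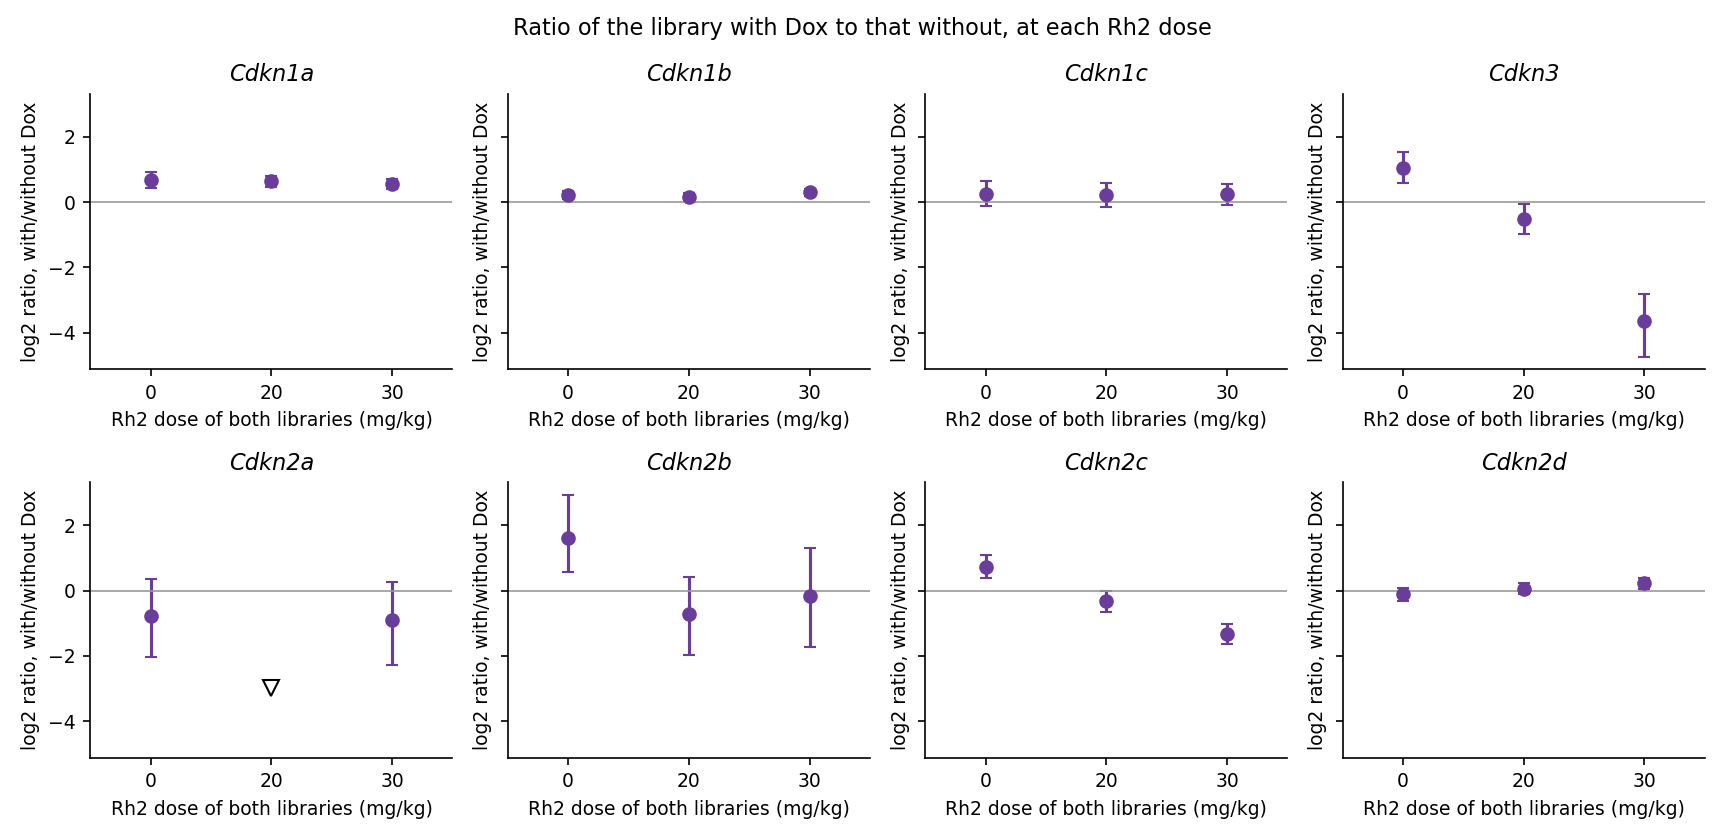
Log2 ratio of the library with Dox to the library without (vertical axes) at Rh2 doses of 0, 20 and 30 mg/kg (horizontal axes) for the 8 genes, with 95% exact binomial intervals for counting error. The open triangle for Cdkn2a marks 7.80-fold lower, with 3 counts in place of 0 and without the counting error of the other library. Cdkn1a stayed between 0.56 and 0.66, whereas Cdkn3 went from 1.04 to −3.64 and Cdkn2c from 0.72 to −1.32.

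None of the 8 genes passed an adjusted p of 0.05 in the Dox comparison, in which 5 of 18328 genes did (0.0273%), 10.1% did at an unadjusted p under 0.05 and DESeq2 called 425. The median log2 fold change of the 8 was 0.15, with 5 above 0, beside −0.015 for all tested genes. For Rh2 the median was 0.012 with 4 members on each side. Between single libraries, the members at least 2-fold from Control were Cdkn2b and Cdkn3 in Dox, both higher (5.43% of genes were), none in Rh2-20 mg/kg (6.11% of genes were, in either direction), and Cdkn1a, Cdkn2c and Cdkn3 in Rh2-30 mg/kg, all higher (8.46%). In Rh2-20 mg/kg + Dox, Cdkn1a was past 2-fold higher (5.11%) and Cdkn2a lower (3.64%). Rh2-30 mg/kg + Dox had Cdkn1a higher (4.06%) and Cdkn2a and Cdkn3 lower (6.85%). These 5 comparisons share the Control library. Against Dox, Cdkn2a and Cdkn2b were past 2-fold lower at the lower Rh2 dose with Dox (3.44%) and Cdkn2b and Cdkn3 at the higher (7.35%), and both comparisons share the Dox library. Against the library of the same Rh2 dose without Dox, Cdkn2a was past 2-fold lower at 20 mg/kg (2.87%) and Cdkn2c and Cdkn3 at 30 mg/kg (12.1%). Cdkn2b, Cdkn2c and Cdkn3 were the members higher with Dox without Rh2 but lower with Dox at both Rh2 doses, a pattern of 8.65% of tested genes. For Cdkn2b the counting intervals at both Rh2 doses spanned 0.

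**Figure D3:**
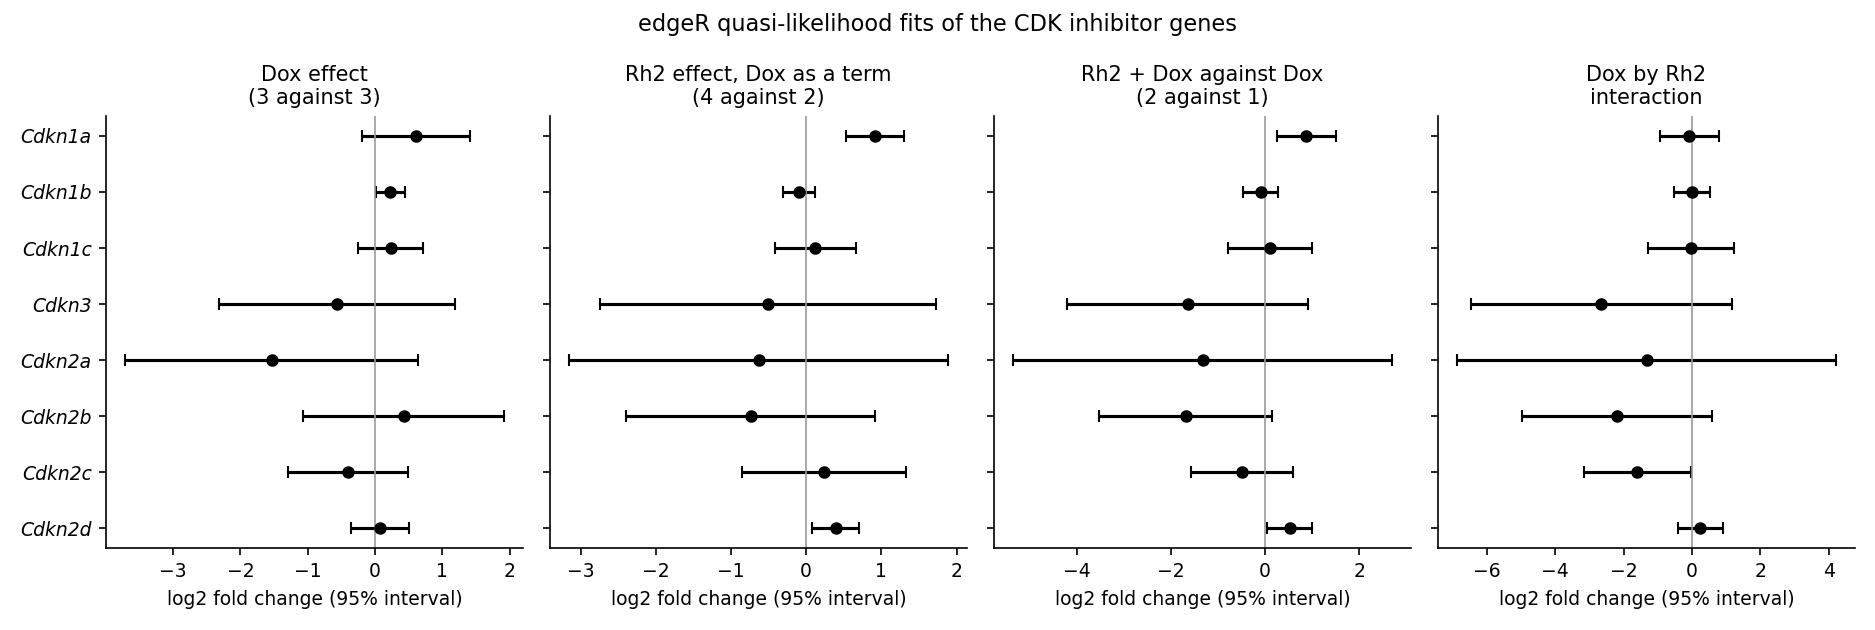
Log2 fold changes (horizontal axes, points) with 95% intervals (bars) of the 8 genes in edgeR's quasi-likelihood fits for Dox, Rh2, Rh2 + Dox against Dox and the interaction; the axes differ in range. In the Rh2 fit the intervals of Cdkn1a (0.53 to 1.30) and Cdkn2d (0.082 to 0.71) lay above 0.

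The kinases and cyclins that these proteins restrain were mostly lower with Dox. Of 15 CDKs, G1 and mitotic cyclins and pocket proteins, 13 had a negative log2 fold change and 8 an unadjusted p under 0.05, all lower, with a median of −0.31, although none passed the adjusted threshold. Over all tested genes, the background for this list and those below, the median with Dox was −0.015. An unadjusted p under 0.05 in either direction was found for 10.1% of them. The smallest p-values were those of Ccnd1, the cyclin D1 partner of CDK4, at −0.74 (edgeR adjusted p = 0.0830), Cdk1, the mitotic kinase, at −2.27 (edgeR adjusted p = 0.103), Ccnb1, its cyclin B1 partner, at −2.19 (edgeR adjusted p = 0.244), and Ccna2, cyclin A2, at −1.79 (edgeR adjusted p = 0.258). Ccnd1 had 1919, 1952 and 2028 counts without Dox and 1042, 1237 and 1200 with it in order of Rh2 dose. Among the 8 E2F factors 7 were negative, 5 had an unadjusted p under 0.05 and none passed, with a median of −0.32. The leading genes were E2f1 (−1.72), E2f3 (−0.42), E2f8 (−1.01) and E2f7 (−0.81), with edgeR adjusted p-values of 0.288, 0.346, 0.377 and 0.403.

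All 18 proliferation markers were lower in the Dox library than in the library without Dox at each of the 3 Rh2 doses, as 17.8% of tested genes were. Their median fold change was −1.08, 15 had an unadjusted p under 0.05, and Cenpf, a kinetochore protein of dividing cells, passed at −1.24 (edgeR adjusted p = 0.0381). The next were Cenpe, a centromere motor (−1.61, edgeR adjusted p = 0.0769), the mitotic kinase Plk1 (−0.99, edgeR adjusted p = 0.159) and the spindle motor Kif11 (−1.96, edgeR adjusted p = 0.159). Their mean log2 ratio to Control was 0.15 and 0.36 at the lower and the higher Rh2 dose without Dox, and −0.78, −1.03 and −1.71 with Dox in order of Rh2 dose. Cdkn3 departed from these genes in Dox, where it was 1.04 above Control on the log2 scale and all 18 markers were below. In Rh2-20 mg/kg + Dox it was at 0.18 (−0.34 to 0.71), where 16 markers were below Control. Cdkn2c was also above Control with Dox, at 0.72 (0.37 to 1.09), 0.34 (−0.026 to 0.72) and 0.12 (−0.27 to 0.51) in order of Rh2 dose. Pearson's r with this mean over the 6 libraries, given as a description, was 0.76 for Cdkn3, 0.55 for Cdkn2c, −0.62 for Cdkn1a, −0.73 for Cdkn1c and −0.85 for Cdkn1b, and all points share the same library totals.

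None of the 22 other p53 targets tested passed with Dox. A positive fold change was found for 14 of them, 4 of which had an unadjusted p under 0.05. The median was 0.11, beside −0.015 for all tested genes, of which 10.1% had such a p in either direction. Those with the smallest p-values were the death receptor Fas at 0.69 (edgeR adjusted p = 0.216), the repair factor Ddb2 at 0.48 (edgeR adjusted p = 0.331), the antiproliferative Btg2 at −0.45 (edgeR adjusted p = 0.344) and Trp53inp1 at 0.50 (edgeR adjusted p = 0.416). With Rh2, 16 of 22 were positive and the median was 0.19, beside 0.011 for all tested genes and 0.91 for Cdkn1a itself. At an unadjusted p under 0.05, 3 were higher and 1 lower, as 8.74% of all tested genes were in either direction. Mdm2 and Ccng1, named after their values were seen because both are standard p53 readouts, were at −0.036 (edgeR adjusted p = 0.927) and −0.058 (edgeR adjusted p = 0.904) with Dox and at −0.083 (edgeR adjusted p = 0.792) and 0.13 (edgeR adjusted p = 0.727) with Rh2. Fas had 3121, 4203 and 3878 counts without Dox and 4681, 6642 and 6409 with it in order of Rh2 dose.

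Of 24 genes read together with p16 and p21 as signs of senescence, 23 were tested and none passed with Dox. A negative fold change was found for 18 and a positive one for 5, with a median of −0.34, and 7 were lower and 1 higher at an unadjusted p under 0.05. The list mixes secreted genes with markers such as Lmnb1 that are lost in senescence. These signs and their median therefore have no single reading. The leading genes were Igfbp3, a secreted binding protein of insulin-like growth factors, at 1.22 (edgeR adjusted p = 0.159), Lmnb1, the lamin B1 gene that is lost in senescence, at −0.59 (edgeR adjusted p = 0.162), Hmgb2, a chromatin protein of dividing cells, at −0.41 (edgeR adjusted p = 0.317) and the chemokine Cxcl1 at −1.11 (edgeR adjusted p = 0.344). Igfbp3 had 490, 730 and 916 counts without Dox and 1299, 1758 and 1764 with it in order of Rh2 dose, the same rank order over the 6 libraries as the Cdkn1a level except that Dox lay above both Rh2 libraries without Dox. Lmnb1 was at 814, 910 and 992 counts against 582, 631 and 553.

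**Figure D4:**
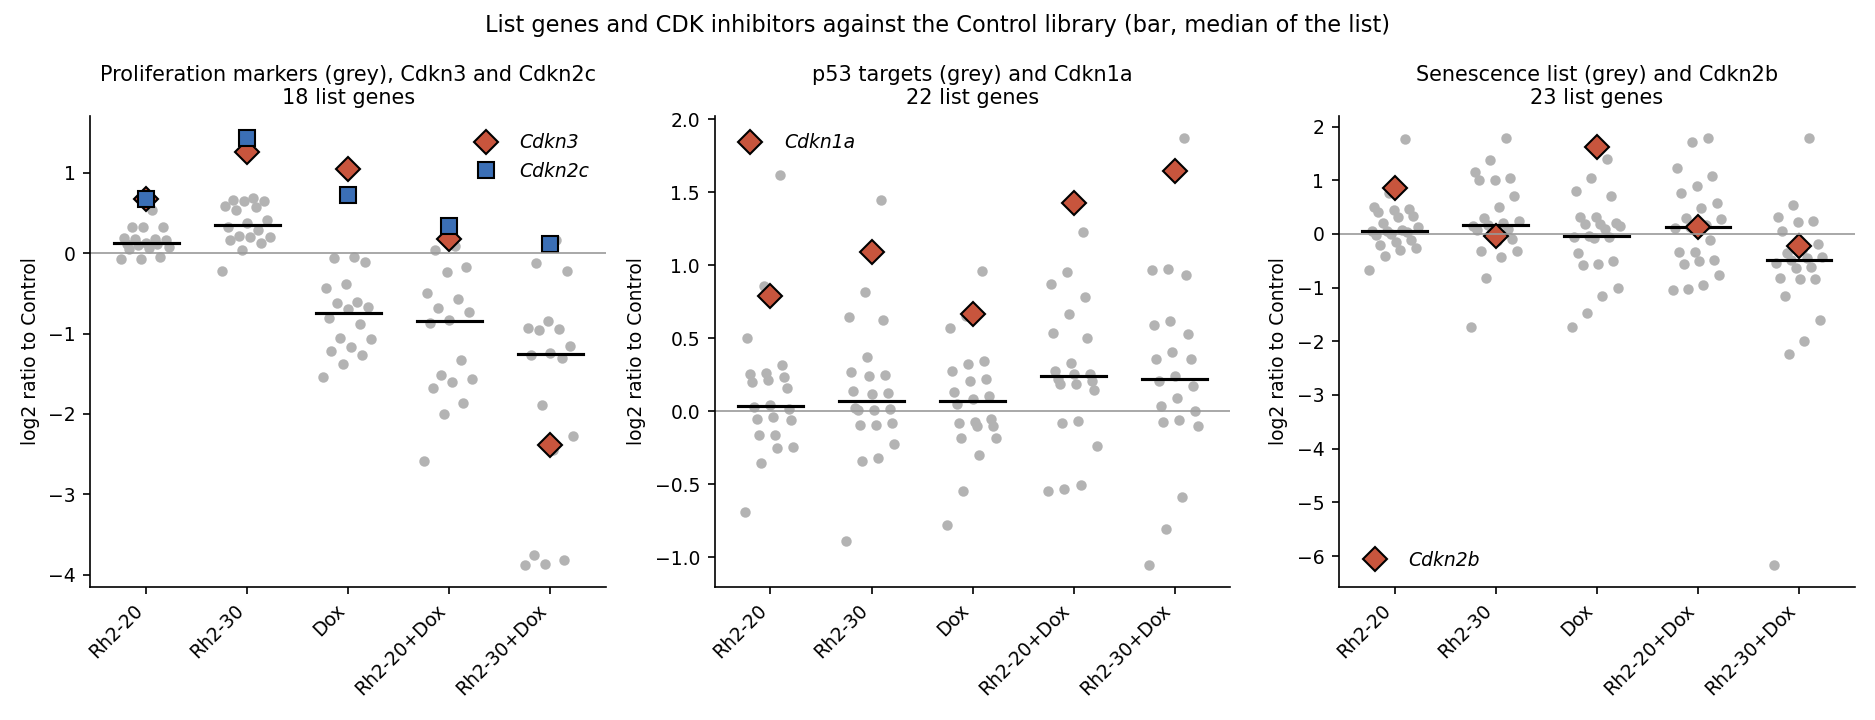
Log2 ratio to the Control library, with a prior count of 0.5 (vertical axes), of the genes of 3 lists (grey points, bar at the list's median) and of CDK inhibitors (coloured symbols) in the 5 treated libraries (horizontal axes). Cdkn1a was at 0.66 to 1.65, above the medians of the p53 targets in all 5, and Cdkn3 was above 0 in Dox, where the 18 proliferation markers were below it.

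Among the regulators of the family, 2 of 19 had an unadjusted p under 0.05 and were higher with Dox, 3 were lower, and none passed. Such a p was found for 10.1% of all tested genes in either direction. Higher were Cbx7, a Polycomb protein that silences the Cdkn2a locus, at 0.48 (edgeR adjusted p = 0.318) and Foxo3, a transcription factor that induces Cdkn1b, at 0.43 (edgeR adjusted p = 0.344). Lower were Dtl, the substrate receptor that marks p21 for degradation, at −2.33 (edgeR adjusted p = 0.319) and Tgfb1, which induces Cdkn2b, at −0.33 (edgeR adjusted p = 0.416). Dtl had 252, 359 and 425 counts without Dox and 103, 81 and 15 with it, in order of Rh2 dose.

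The genes whose log2 CPM most resembled that of each member over the 6 libraries were sought among 13960 or 13961 genes that averaged 100 counts or more. For Cdkn1a they were Vamp8 (r = 0.996), Sgms1 (r = 0.994) and Klf13 (r = 0.988), and 58 genes exceeded 0.95. For Cdkn3 they were Fcgr1, Ptprz1 and the mitotic ubiquitin enzyme Ube2c, each at r = 0.989 or 0.990. For Cdkn1b they were Edc4, Acad10 and Ptcd1 (r = 0.992 to 0.998), for Cdkn2c Rph3al, Lman2l and Abhd12 (r = 0.986 to 0.995), and for Cdkn2d Rgs5, LOC115488332 and Kcna5 (r = 0.980 to 0.994). Exosc1, Mmd and Fdxacb1 were nearest to Cdkn1c (r = 0.987 to 0.996). For the sparse Cdkn2a and Cdkn2b the nearest were Srm, Cog2 and Mfsd4b4 (r = 0.964 to 0.980) and Trim12a, Wdr13 and Col11a2 (r = 0.980 to 0.993). With 6 points and many genes, values this high are found for every member.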

How the data were processed

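RNA from hearts of tumour-bearing mice was measured in 6 libraries, 1 per condition and each from 5 pooled hearts, and each table column was matched to its condition by its name. The deposited counts were whole reads per gene without normalization. The authors made them by removing low-quality bases, aligning to mm10 with HISAT2 2.1.0 and estimating abundance with StringTie 2.1.3b on annotation from the UCSC table browser. Trimmomatic and bcl2fastq 2.20.0 are also in the submitters' processing notes. The deposited FPKM values, from StringTie, are scaled to transcript length and library total. The deposited TPM values, also from StringTie, served only to check the order of levels. Whether counting used strand is not given in the sources used here, and reads shared by near-identical genes were placed as the authors' software did.

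The tools were edgeR 4.0.16 (quasi-likelihood test), DESeq2 1.42.0 and limma 3.58.1, run in R 4.3.3, with Python 3.11.15 and matplotlib 3.10.9 for motifs and figures. The 18328 genes averaging 10 counts or more were tested, two-sided, after TMM normalization, with Benjamini-Hochberg adjustment and a threshold of 0.05. The fits were Dox against no Dox (3 libraries each, no covariate), Rh2 against no Rh2 with Dox as a term (4 against 2), and, in a fit with 4 cells, Rh2 + Dox against Dox and the interaction. The study's methods name edgeR and count all 6 libraries as biological replicates. Ratios of single libraries were taken after TMM scaling, with 0.5 as the prior count and exact conditional binomial 95% intervals, and levels of single libraries carry 95% Poisson intervals. For a count of 0, the fold takes 3 counts in its place and leaves out the counting error of the other library. At 86164411 to 90621002 counts per library, counting error is a few percent for Cdkn1b and large for Cdkn2a and Cdkn2b. Simulated counts with set fold changes were used to test the fits.

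The members, gene lists, comparisons and the rule for named genes (all members, for each list the genes that passed or the 4 smallest p-values in the Dox comparison, and the 3 genes most correlated with each member) were chosen with earlier results of these data known. The lists and motifs are textbook ones. Alternatives were DESeq2's size factors and Wald test, no filter on low counts, a mean of at least 100 counts, FPKM plus 1 or 0.1 in limma, a prior count of 2, Rh2 dose as a term, no Dox term, and each library left out. Proteins, sections and cell cultures were not analysed here. A further list of cell type markers is not reported here.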

Additional observations from a re-analysis of the deposited data

Results flagged for a closer look

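Without Rh2 the Dox library lay on one side of its partner and at both Rh2 doses it lay on the other side for 4 genes of the family, which is why they are listed here. The contrast is the Dox fold change with Rh2 minus that without, on the log2 scale. For Cdkn3 it was −2.65, for Cdkn2b −2.18 and for Cdkn2c −1.60, where Dox was higher without Rh2 and lower with it, and for Cdkn2d it was 0.25, where Dox was lower without Rh2 and higher with it. None passed in edgeR's quasi-likelihood test, where the adjusted p-values were 0.988 for Cdkn2c and 0.988, 0.988 and 0.988 for Cdkn3, Cdkn2b and Cdkn2d. The same 2 orders were seen in 8.65% and 7.44% of all tested genes. The Cdkn2b order rests on 8 to 29 counts per library. Its log2 Dox ratio was −0.71 (−1.96 to 0.42) at 20 mg/kg and −0.18 (−1.74 to 1.30) at 30 mg/kg. For Cdkn2d the counting intervals spanned 0 without Rh2 and at 20 mg/kg. The change of side is thus not clear of counting error for Cdkn2b and Cdkn2d. Whether marker levels of other cell types, which were highest for fat, atrium and fibroblasts in Rh2-30 mg/kg, have a part in the Cdkn3 and Cdkn2c values was not tested.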

How the results depend on the processing

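With edgeR's quasi-likelihood test, 5 genes passed for Dox and none for Rh2, Rh2 + Dox against Dox or the interaction (1602, 954 and 497 at an unadjusted p under 0.05). DESeq2's Wald test called 425 for Dox, 242 for Rh2, 101 for Rh2 + Dox against Dox and 38 for the interaction, and among the family only Cdkn1a with Rh2. For Dox, limma on FPKM plus 1 called 0, and Rh2 dose as a term, the pairing of libraries of equal dose (replicate block), called 0, with 1598 at an unadjusted p under 0.05. With 1 library left out, 0 to 14 genes passed for Dox and 0 to 1 for the interaction. A lone library is then assumed to vary like the others. The labels carry no replicate numbers, so no other pairing was possible.

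Members kept their direction in the 32 values of DESeq2's size factors and in the 32 without a filter. The Cdkn1b interaction turned from 0.012 to −0.072 with FPKM plus 1 and −0.086 with FPKM plus 0.1. With each library left out, direction turned within these ranges: with Dox, Cdkn2b −0.37 to 0.80, Cdkn2c −0.69 to 0.049 and Cdkn2d −0.022 to 0.23. With Rh2 they were Cdkn2b −1.69 to 0.49, Cdkn2c −0.49 to 1.11 and Cdkn3 −1.65 to 1.003. For Rh2 + Dox against Dox the range was −0.051 to 0.24 for Cdkn1c. For the interaction they were Cdkn1a −0.21 to 0.080, Cdkn1b −0.023 to 0.050 and Cdkn1c −0.19 to 0.10. Without a turn but by over 1.5 times, values moved with Dox to 0.35 to 0.87 for Cdkn1a, 0.14 to 0.34 for Cdkn1c, −2.12 to −0.95 for Cdkn2a and −1.34 to −0.064 for Cdkn3. With Rh2 they moved to 0.057 to 0.18 for Cdkn1c and −1.35 to −0.0016 for Cdkn2a. For Rh2 + Dox against Dox they were −0.13 to −0.058 for Cdkn1b, −6.55 to −0.33 for Cdkn2a and −3.47 to −0.87 for Cdkn3, and for the interaction −6.55 to −0.33 and −4.47 to −1.87 for Cdkn2a and Cdkn3. The Cdkn1a fold change with Rh2 stayed at 0.85 to 0.97, with an edgeR adjusted p of 0.610 to 0.873. The cause of these turns was not tested.

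Genes past 2-fold against Control numbered, without a filter, 5171 for Dox, 4575 and 5837 for the lower and the higher Rh2 dose, and 5207 and 5560 for these doses with Dox. Among genes averaging 100 counts or more they numbered 466, 160, 571, 463 and 727. Against Dox, the lower and the higher Rh2 dose with Dox had 4920 and 5550 without a filter and 207 and 642 with the higher minimum. Against the same Rh2 dose they had 4951 and 6897, and 342 and 1156. These settings test more or fewer low-count genes. Ratios of members with FPKM plus 1 left the counting interval in 26 of 72 cases, none with a changed sign at 2-fold or more. Depth limits Cdkn2a and Cdkn2b most.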
